A study of Homo sapiens with 24 samples.

Results

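E-cadherin (CDH1) and genes that act with it or on it in the epithelial–mesenchymal transition (EMT) were followed through RNA-seq libraries of colorectal cancer cells. The set held 10 of the 33382 genes listed, chosen by name: the adhesion molecules CDH1, CDH3 and EPCAM, the repressors ZEB1, SNAI1 and SNAI2, the splicing regulators ESRP1 and ESRP2, and the epithelial transcription factors GRHL2 and ELF3. SW480 and SW620 are established colorectal adenocarcinoma lines derived from the same patient. Every group, controls included, had been infected with a lentivirus and selected with 5 µg/ml puromycin, and the virus was either empty (vector) or carried Tet2CD, the catalytic domain of the DNA demethylase TET2. Cells then received DMSO, TGFB1 at 4 ng/ml or RepSox, an inhibitor of the type I TGF-beta receptor, at 1 µM, each for 24 h. Line, construct and treatment gave 12 groups of 2 libraries: vector with DMSO, TGFB1 or RepSox and Tet2CD with DMSO, TGFB1 or RepSox, in SW480 and in SW620. No source read here states the promoter of the construct or whether cells were a pool or a clone.

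E-cadherin holds neighbouring epithelial cells together at adherens junctions through catenins bound to its cytoplasmic tail, and its loss is a textbook sign of EMT. ZEB1, SNAI1 and SNAI2 are zinc finger proteins that bind E-box sequences and repress CDH1, and TGF-beta is a classical inducer of all of them. ESRP1 and ESRP2 keep epithelial splice forms of many transcripts, GRHL2 activates CDH1 and opposes ZEB1, and ELF3 is an ETS family factor of intestinal and other epithelia.

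The libraries held 2146123 to 4410567 expected counts each, with a median of 3653712. The keratins KRT8 (3456 to 6590 TPM), KRT18 (2271 to 6975) and KRT19 (877 to 1968) were abundant in every library. Of the other intestinal markers, VIL1 (19.3 to 325 TPM), CDX2 (5.43 to 143) and HNF4A (7.48 to 89.0) were present in every library. In contrast, CDX1, KRT20, GPA33 and LGALS4 stayed at or below 0.7, 4.55, 1.33 and 7.33 TPM. Summed over each list, fibroblast markers reached 25.5 TPM, blood cell markers 15.2 and endothelial markers 11.6, with PTPRC at or below 0.33 and KDR at 0. TET2 itself lay between 10.3 and 25.0 counts scaled to library size (CPM, TMM-scaled) in vector libraries and between 270 and 2640 in Tet2CD libraries. All 3 first libraries of SW480-Tet2CD stood apart from their partners. They differed from them by an SD of 0.697 to 1.13 in log2 level over genes, against 0.409 to 0.541 in the other groups. Ribosomal protein genes took 10.1% to 15.0% of their counts, against 5.74% to 9.42% elsewhere, and their TET2 stood at 894, 827 and 270 CPM where the partners had 1849, 2640 and 1690. The replicate differences of the 3 SW480-Tet2CD groups correlated with each other across genes (r from 0.603 to 0.714), so their first libraries share a shift and the 6 SW480-Tet2CD libraries are not 6 independent samples. P-values of Tet2CD in SW480 may therefore be too small, and the members called in that comparison are given with and without the 3 libraries. Leaving them out keeps 1 library in each SW480-Tet2CD group. Calls in that fit take their spread from the remaining groups and are given as a description only.

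Across genes, levels were compared as TPM, which divides by transcript length. In SW480-vector cells EPCAM had by far the highest median, 463 TPM over 6 libraries, followed by ESRP1 (57.1), CDH3 (50.5), CDH1 (38.2), ELF3 (35.2) and ESRP2 (27.6). The repressors came last among the detected genes, with SNAI1 at 6.02, ZEB1 at 4.735 and SNAI2 at 0.675 TPM, and GRHL2 had none. In SW620-vector cells EPCAM (424) was again first, but CDH1 (148) stood second, ahead of ESRP1 (101), ESRP2 (59.2) and ELF3 (38.2). There SNAI1 reached 13.4, ZEB1 9.805, SNAI2 4.495, CDH3 4.445 and GRHL2 0.195 TPM.

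**Figure D1:**
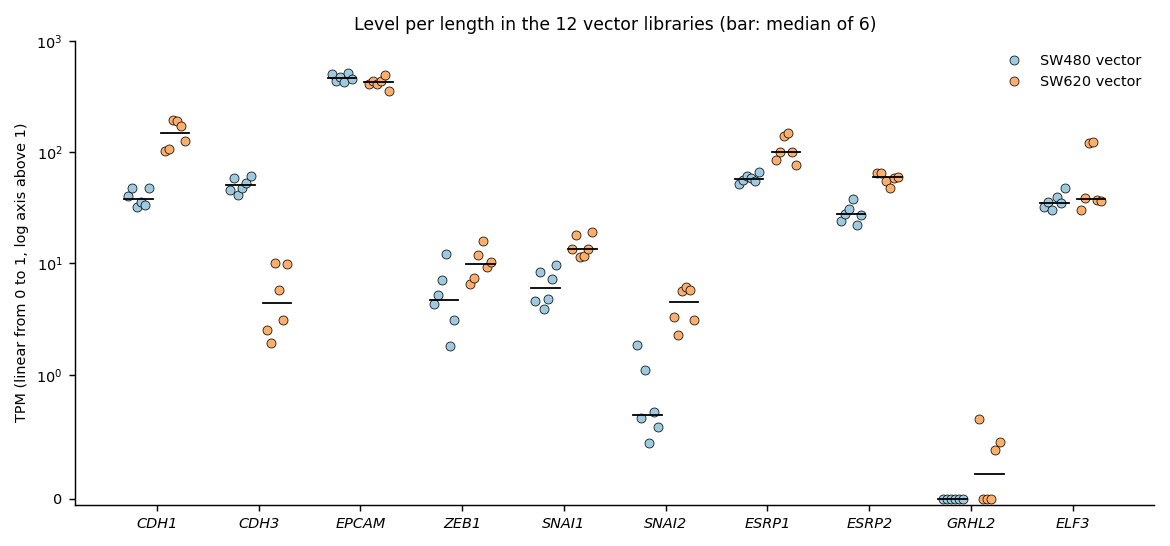
Level per transcript length of the 10 genes in the 12 vector libraries, in TPM (linear from 0 to 1, log axis above), with SW480 in blue and SW620 in orange, 1 point per library and a bar at the median of 6. EPCAM stands at 463 and 424 TPM, CDH3 is higher in SW480 (50.5 against 4.445), and CDH1 is higher in SW620 (148 against 38.2).

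Which line expresses more of each gene was asked first, in vector cells averaged over the 3 treatments. CDH3, which encodes P-cadherin, was 17.8-fold higher in SW480, while CDH1 was 3.74-fold higher in SW620. All 3 repressors, both ESRPs and ELF3 were also higher in SW620. EPCAM, an epithelial adhesion molecule, was not called different. In the edgeR quasi-likelihood test, adjusted by Benjamini-Hochberg over the 15302 genes that passed the filter on low counts, 9 of the 10 members were tested and 8 were called at an adjusted p of 0.05. Over all tested genes the share called was 58.9% (28.9% higher and 30% lower in SW480), so that calls between the lines were common. GRHL2 did not pass the filter. The summed TPM of the fibroblast markers moved with the line too, at 1.25 to 2.5 in SW480-vector and 11.96 to 25.5 in SW620-vector libraries. A single gene can carry such a sum: over all libraries LUM reached 21.1 TPM and no other marker of the list exceeded 4.1 (THY1). FAP went the other way, with counts in SW480-vector and none in SW620-vector libraries. The part of these markers in the differences was not tested. In these bulk samples fewer expressing cells and less RNA per cell cannot be told apart.

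CDH1 in vector libraries ranged from 63.4 through a median of 92.0 to 114 CPM in SW480, and from 237 through 327 to 463 CPM in SW620. By treatment, group means in SW480 and SW620 were 104 and 241 CPM with DMSO, 67.4 and 461 with TGFB1, and 98.8 and 327 with RepSox. The average over treatments therefore exceeds the gap with DMSO alone. No library of SW480 reached the lowest of SW620, and the log2 difference was -1.90 ± 0.15 (SE, n = 6 against 6; adjusted p = 7.85e-09, edgeR). CDH3 ran the other way, from 62.7 to 116 CPM (median 98.7) in SW480 and from 3.09 to 7.45 (median 5.64) in SW620. That gap amounted to 4.16 ± 0.20 on the log2 scale (adjusted p = 2.06e-11). The genes for these cadherins are neighbours on chromosome 16 of GRCh38, CDH3 at chr16:68636189-68722616 and CDH1 at chr16:68737225-68835548, with 14609 bases between them on the plus strand. ESRP2 lies on the same chromosome, on the minus strand at chr16:68229111-68238102.

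The splicing regulators differed less. ESRP1 stood at 89.4 to 113 CPM in SW480-vector and 143 to 270 in SW620-vector libraries, without overlap (log2 difference -0.92 ± 0.11, adjusted p = 2.66e-06). ESRP2 stood at 44.9 to 66.7 and 83.0 to 126 CPM, again without overlap (-1.03 ± 0.11, adjusted p = 4.46e-07). ELF3 ranges overlapped, 26.7 to 37.1 against 26.3 to 106 CPM, and the difference of -0.65 ± 0.10 (adjusted p = 3.52e-05) fell to -0.16 ± 0.18 (adjusted p = 0.541) with the DMSO libraries alone. EPCAM ranged from 356 to 484 CPM in SW480 and from 337 to 407 in SW620 (0.13 ± 0.10, adjusted p = 0.285). Without the 3 SW480-Tet2CD libraries that stood apart EPCAM too was called (0.19, adjusted p = 0.039).

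**Figure D2:**
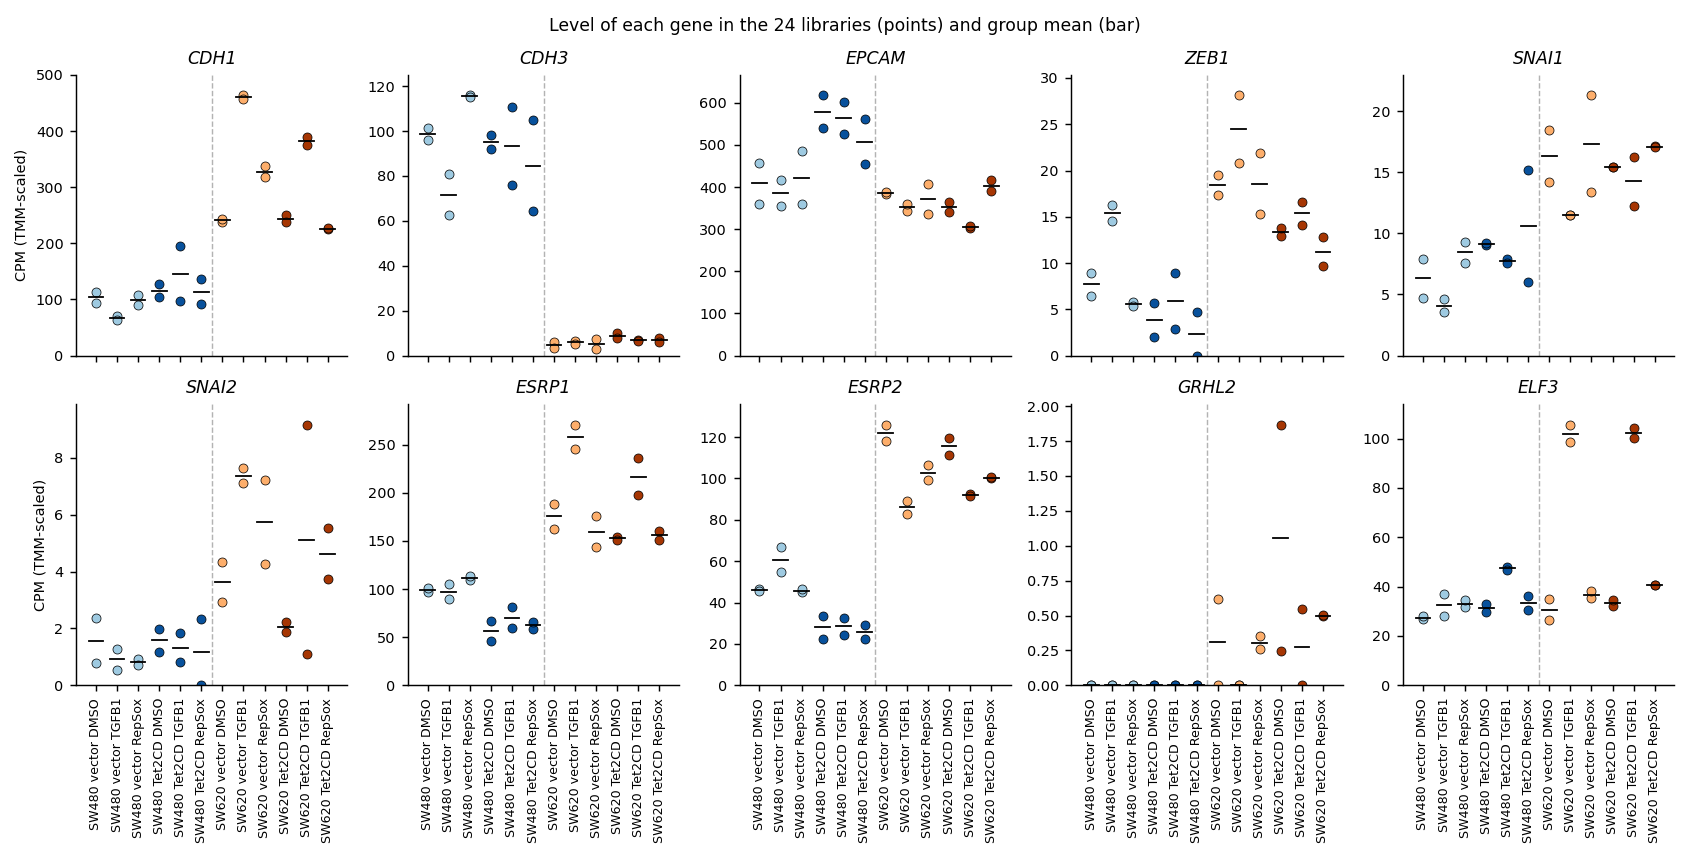
CPM of the 10 genes in each of the 24 libraries (points, linear axis from 0, a scale of its own per panel) by group, with the mean of 2 as a bar and a dashed line between SW480 (blue) and SW620 (orange). CDH1 and ELF3 peak in the SW620 groups with TGFB1, at 376 to 463 and 98.5 to 106 CPM, and GRHL2 has no count in any SW480 library.

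The order of the 12 groups was then set out for each gene. CDH1 was highest in SW620-vector with TGFB1 (461 ± 4.03 CPM, mean ± SD, n = 2), then SW620-Tet2CD with TGFB1 (382 ± 9.04) and SW620-vector with RepSox (327 ± 13.6). Those 3 groups did not overlap with each other or with the next. The lowest was SW480-vector with TGFB1, and of the 11 pairs of neighbours in the order 5 overlapped. Neighbours separated more rarely for EPCAM and SNAI2, where 10 of 11 pairs overlapped, for CDH3 and SNAI1 (9), and for ZEB1 and ELF3 (7). ESRP1 (6) and ESRP2 (5) had about as many overlapping pairs as CDH1. The groups of 2 libraries were sorted by their own means, so neighbours can separate without a real difference. No such count was made over all genes. Counted as TPM in place of CPM, 7 of the 10 genes kept their highest group and 8 their lowest.

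How much can be read from the repressors depends on their counts. Over the 12 SW480 libraries together, ZEB1 had 301 counts, SNAI1 313, SNAI2 52 and GRHL2 0. In SW620 these were 762, 677, 212 and 19. Pooled over the line, ZEB1 amounted to 7.45 CPM (exact Poisson 95% interval 6.63 to 8.34) in SW480 and 17.0 (15.8 to 18.2) in SW620. SNAI1 amounted to 7.75 (6.91 to 8.66) and 15.1 (13.98 to 16.3), and SNAI2 to 1.29 (0.962 to 1.69) and 4.73 (4.11 to 5.41). Intervals cover counting error only. They did not overlap between the lines for any of the 3 repressors. How often such intervals separate over all genes was not counted, and 58.9% of all tested genes were called between the vector lines. Library by library ZEB1 did overlap, reaching 16.3 CPM in SW480-vector and starting at 15.3 CPM in SW620-vector.

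In a single library a floor of 3 counts corresponds to 0.675 to 1.82 CPM, depending on its depth. ZEB1 and SNAI2 each had 0 counts in 1 library, the first SW480-Tet2CD library with RepSox, which was also the shallowest. Elsewhere in SW480 SNAI2 had at most 8 counts, so its level there sat near the floor. GRHL2 had 0 counts in all 12 SW480 libraries, where a floor of 3 counts over them corresponds to 0.0743 CPM and the exact Poisson 95% upper bound to 0.0913 CPM, and 4 of the 12 SW620 libraries had none either. Its 19 counts in SW620 gave 0.424 CPM (0.255 to 0.662), and 9 of them came from SW620-Tet2CD with DMSO, where the libraries had 1 and 8. For GRHL2 no fold change or test is given at this depth.

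**Figure D3:**
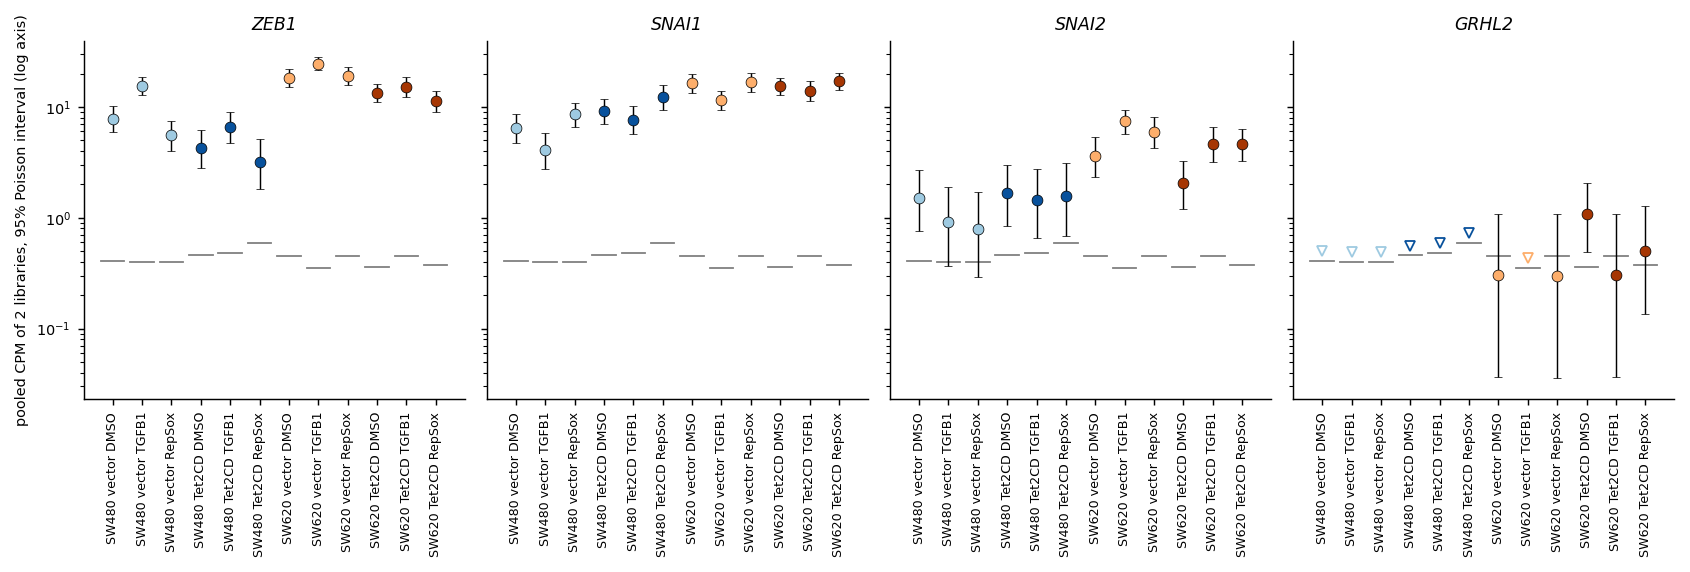
Pooled CPM of the 2 libraries of each group for ZEB1, SNAI1, SNAI2 and GRHL2 (log axis) with exact 95% Poisson intervals, grey bars at the floor of 3 counts, and open triangles at the upper bound where a group had 0 counts. ZEB1 and SNAI1 lie above the floor in all 12 groups, SNAI2 reaches it within its interval in SW480-vector with TGFB1 or RepSox, and GRHL2 has 0 counts in the 6 SW480 groups and in SW620-vector with TGFB1.

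In vector libraries the repressors were higher in SW620, the line with more CDH1. SNAI1 ranged from 3.58 to 9.32 CPM in SW480 and from 11.5 to 21.3 in SW620, without overlap (-1.28 ± 0.20, adjusted p = 3.35e-05). SNAI2 ranged from 0.542 to 2.35 and from 2.93 to 7.65 CPM, without overlap (-2.34 ± 0.49, adjusted p = 0.000638). ZEB1 ranged from 5.36 to 16.3 and from 15.3 to 28.1 CPM, with overlap, and differed by -1.22 ± 0.28 (adjusted p = 0.00119). With DMSO libraries alone ZEB1 (adjusted p = 0.0588) and SNAI2 (0.282) were no longer called.

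Sequence upstream of RefSeq start sites, some of them inside the genes, was looked at because the repressors bind E-boxes. The RefSeq promoter table (GRCh38.p14) held entries for 2 members, ELF3 with 1 window of 250 bases and ZEB1 with 7. The E-box CAGGTG, or CACCTG on the other strand, occurred once in the ELF3 window and 3 times in 2 of the ZEB1 windows, and 17.5% of all 35116 windows held it. The stretches of 30 bases around the matches are shown with the E-box in capitals. ELF3 is shown as the member with the largest called change with TGFB1, and ZEB1 because its own protein binds such sites.
ELF3, chr1:202010455-202010484, plus strand, E-box from -120 to -115: gaatatgcaaatCACCTGgggccaggagcc
ZEB1, chr10:31318348-31318377, plus strand, E-box from -57 to -52: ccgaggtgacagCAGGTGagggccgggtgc
ZEB1, chr10:31318966-31318995, plus strand, E-box from -242 to -237: ccccaccaCACCTGaggaaaacttttccct
ZEB1, chr10:31319119-31319148, plus strand, E-box from -85 to -80: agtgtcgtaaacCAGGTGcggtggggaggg
Positions are counted from the start site of the window, and a match is a description, not a binding site. The ELF3 window lies within the gene span and overlaps exons of ELF3 and ELF3-AS1. The ZEB1 window at chr10:31318966-31319215, with 2 of the 3 matches, likewise lies within the gene and overlaps exons of ZEB1 and ZEB1-AS1. The other ZEB1 window with a match overlaps an exon of ZEB1-AS1. The genes overlap transcripts of the other strand, among them ELF3-AS1 by 2519 bases and ZEB1-AS1 by 1953 bases of the gene spans, AC099314.1 at CDH1, AC126773.2 at CDH3 and AP001207.3 at GRHL2. ESRP2 shares 149 bases with the protein-coding gene NFATC3 on the other strand. No source read here says whether counting took account of strand, so reads of overlapping exons cannot be told apart.

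The effect of Tet2CD was read as Tet2CD minus vector within each line, averaged over the 3 treatments (6 against 6 libraries). In SW480, CDH1 rose 1.41-fold, EPCAM rose by 0.44 and SNAI1 by 0.61 on the log2 scale. ZEB1 and both splicing regulators fell, ESRP2 furthest against its error. CDH3, SNAI2 and ELF3 were not called. Thus 6 of 9 tested members were called, in a comparison in which 54.5% of all tested genes were (29.2% higher and 25.3% lower), so calls were common among other genes as well. These calls share an estimate of spread with the SW620 libraries. Fitted to the SW480 libraries alone, 3 members were called, and 5631 of 14167 genes. TET2 rose by 6.21 on the same scale. The intestinal markers moved with the construct, 7 of 8 tested rising (CDX2 by 1.58, VIL1 and HNF4A by 0.88 each), and the 2 tested endothelial markers rose as well (VWF by 1.06, PECAM1 by 1.85). Summed, the intestinal list ran from 7698 to 12361 TPM in vector and from 9681 to 14489 in Tet2CD libraries, and the endothelial list from 0.56 to 2.3 and from 1.82 to 7.87. Their part in the members' changes was not tested.

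CDH1 stood at 63.4 to 114 CPM (median 92.0) in SW480-vector and at 92.7 to 195 (median 115) in SW480-Tet2CD. The ranges overlapped, and the log2 change was 0.50 ± 0.14 (adjusted p = 0.00878). By treatment, the vector libraries had 93.7 and 114 CPM with DMSO, 71.4 and 63.4 with TGFB1, and 90.4 and 107 with RepSox. The Tet2CD libraries had 104 and 127, 96.5 and 195, and 92.7 and 136. The groups separated with TGFB1 and overlapped with DMSO and with RepSox. With DMSO libraries alone the change was 0.15 ± 0.25 (adjusted p = 0.705). It was 0.74 without the 3 libraries that stood apart, which leaves 1 library in each SW480-Tet2CD group. Without the second SW480-Tet2CD library with TGFB1, at 195 CPM, the change was 0.26 and no longer called.

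EPCAM ranged from 356 to 484 CPM (median 388) in SW480-vector and from 454 to 617 (median 550) in SW480-Tet2CD (0.44 ± 0.10, adjusted p = 0.00257). In CPM most of the Tet2CD libraries lay above the vector libraries, with overlap around 454 to 484. In TPM the vector libraries had 425 to 513. The first Tet2CD libraries with DMSO, TGFB1 and RepSox had 470, 402 and 231 TPM, not above them, and the second had 636, 727 and 659. Without the 3 libraries that stood apart the change was 0.40. CDH3 had medians of 98.7 and 94.9 CPM and a change of -0.04 ± 0.16 (adjusted p = 0.868).

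ESRP1 ranged from 89.4 to 113 CPM in vector and from 45.5 to 81.5 in Tet2CD libraries. Every Tet2CD library lay below every vector library, and the change was -0.70 ± 0.12 (adjusted p = 0.000195). ESRP2 was at 46.7 and 45.6 CPM with DMSO, 54.5 and 66.7 with TGFB1 and 44.9 and 46.3 with RepSox in vector cells. With Tet2CD it was at 22.4 and 33.5, 24.4 and 32.7, and 22.4 and 29.2. The groups did not overlap for any treatment, and the change was -0.86 ± 0.11 (adjusted p = 2.75e-05). ESRP1 and ESRP2 were the members still called with DMSO libraries alone (-0.80, adjusted p = 0.025, and -0.71, adjusted p = 0.0408). Without the 3 libraries that stood apart they were at -0.54 and -0.68.

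The ZEB1 counts in SW480-vector were 22 and 35 with DMSO, 57 and 60 with TGFB1 and 19 and 23 with RepSox. In SW480-Tet2CD they were 5 and 23, 7 and 34, and 0 and 16. The lower count of each Tet2CD pair, 5, 7 and 0, came from the library that stood apart. The fall of -1.04 ± 0.33 (adjusted p = 0.0158) shrank to -0.51 and lost its call without those 3 libraries. With 1 library left out at a time it ranged from -3.18 to -0.83 and was called each time. The value of -3.18 (adjusted p = 0.000398) came without the second SW480-Tet2CD library with RepSox, which leaves the library with 0 counts alone in that group. SNAI1 ranged from 3.58 to 9.32 CPM in vector and from 6.06 to 15.2 in Tet2CD cells (0.61 ± 0.21, adjusted p = 0.0224). Its call was lost in 6 of the 12 fits that each left out 1 of these libraries. The change was 0.30 without the second SW480-Tet2CD library with RepSox, and 0.73 without the 3 libraries that stood apart. SNAI2 (0.52, adjusted p = 0.469) and ELF3 (0.24, adjusted p = 0.0566) were not called.

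**Figure D4:**
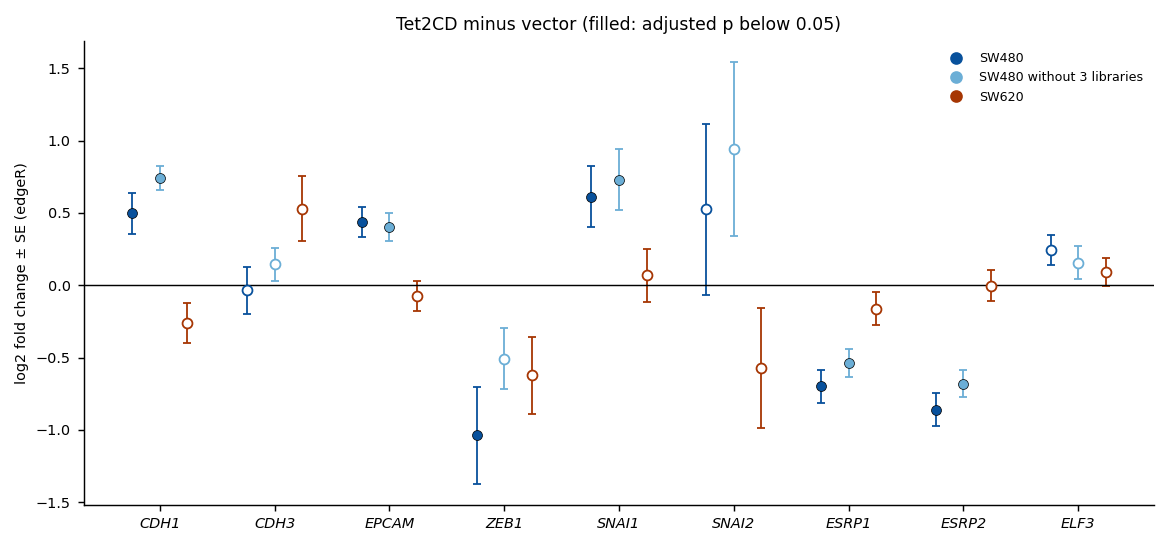
Log2 fold change ± SE of Tet2CD against vector for the 9 tested genes in SW480 (dark blue), in SW480 without the 3 libraries that stood apart (light blue) and in SW620 (orange), with filled points where the adjusted p was below 0.05. In SW480 ESRP1 (-0.70) and ESRP2 (-0.86) fell and CDH1 (0.50) rose with and without those libraries, ZEB1 lost its call without them, and no SW620 point is filled. The light blue fit has 1 library in each SW480-Tet2CD group, so its errors come from the other groups.

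In SW620 none of the 9 tested members was called, and 0.314% of all genes were, although TET2 rose by 6.14. Before adjustment 1100 genes had a p under 0.05, CDH3 (0.53 ± 0.22, adjusted p = 0.596) and ZEB1 (-0.62 ± 0.27, adjusted p = 0.607) among them. DESeq2 called 0 members as well. CDH1 in SW620 stood at 237 and 244 CPM (vector) against 250 and 238 (Tet2CD) with DMSO, 463 and 458 against 389 and 376 with TGFB1, and 337 and 318 against 225 and 228 with RepSox. The constructs overlapped with DMSO and separated, Tet2CD lower, with TGFB1 and RepSox. The average was -0.26 ± 0.14 (adjusted p = 0.769). Without the 3 SW480 libraries that stood apart, CDH1 (-0.25, adjusted p = 0.0382) and ZEB1 (-0.62, adjusted p = 0.0151) were called in SW620.

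The Tet2CD effects of the lines were compared directly by an interaction contrast, called for 20.1% of all genes (10.2% higher and 9.93% lower) and for 4 members. CDH1 (0.76 ± 0.20, adjusted p = 0.0168) and EPCAM (0.51 ± 0.15, adjusted p = 0.024) changed more towards higher values in SW480 than in SW620. ESRP1 (-0.54 ± 0.16, adjusted p = 0.0287) and ESRP2 (-0.86 ± 0.16, adjusted p = 0.00197) changed more towards lower values. For ZEB1 the difference was -0.41 ± 0.43 (adjusted p = 0.5), so its behaviour was not shown to differ between the lines in this fit. Without the second SW480-Tet2CD library with RepSox, however, it was -2.56 (adjusted p = 0.0199) for ZEB1, which then rested on 0 counts in that group, and -0.73 (adjusted p = 0.0335) for CDH3. With DMSO libraries alone no member was called. When libraries were left out singly, ESRP2 was called in all 24 fits, CDH1 was lost in 3, ESRP1 in 6 and EPCAM in 14.

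TGFB1 was added to ask what an EMT inducer does in each line, and its effect was read against DMSO over vector and Tet2CD cells together (4 against 4). In SW620, ELF3 rose 3.19-fold, CDH1 rose 1.73-fold, ESRP1 rose by 0.53 on the log2 scale and ESRP2 fell by 0.42. The 3 repressors were not called. So 4 of 9 tested members were called, where the share over all genes was 15.6% (8.31% higher and 7.27% lower). The same DMSO libraries serve as controls for RepSox below.

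ELF3 in SW620 had 26.3 and 34.9 CPM (vector) and 32.0 and 34.7 (Tet2CD) with DMSO, and 106 and 98.5 and then 100 and 104 with TGFB1. All 4 libraries with TGFB1 lay far above all 4 with DMSO (1.67 ± 0.12, adjusted p = 3.87e-07). It was called within vector cells (1.74, adjusted p = 3.44e-05) and within Tet2CD cells (1.61, adjusted p = 6.89e-05). CDH1 lay at 237 to 250 CPM with DMSO and at 376 to 463 with TGFB1, without overlap (0.79 ± 0.17, adjusted p = 0.00474). It rose by 0.94 (adjusted p = 0.0353) in vector cells, and was at 0.65 (adjusted p = 0.156) in Tet2CD cells. The difference between the constructs was tested and called for no member in SW620 and for 0% of genes by edgeR, with 201 genes at a p under 0.05 before adjustment.

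ESRP1 had 162, 189, 154 and 151 CPM with DMSO and 245, 270, 198 and 236 with TGFB1. These groups did not overlap (0.53 ± 0.14, adjusted p = 0.0138), but the call was lost in 6 of the 8 fits without 1 library (adjusted p up to 0.108). ESRP2 had 118, 126, 111 and 120 CPM with DMSO and 88.9, 83.0, 92.6 and 91.5 with TGFB1. Every library with TGFB1 was lower (-0.42 ± 0.13, adjusted p = 0.0388), and the call was lost in all 8 such fits (adjusted p from 0.0689 to 0.124). Without the 3 SW480 libraries that stood apart, ESRP1 was at 0.50 (adjusted p = 0.000171) and ESRP2 at -0.44 (adjusted p = 0.000253).

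The repressors in SW620 rested on few counts. SNAI2 had 4.33, 2.93, 2.23 and 1.87 CPM with DMSO and 7.1, 7.65, 1.09 and 9.15 with TGFB1. The second Tet2CD library with TGFB1 and the vector libraries with TGFB1 were the highest and the first Tet2CD library with TGFB1 the lowest, so the groups overlapped (1.14 ± 0.52, adjusted p = 0.157). Without the filter on low counts SNAI2 was called (adjusted p = 0.0433), and so it was without that lowest library (1.59, adjusted p = 0.0307). ZEB1 had 19.5, 17.3, 12.9 and 13.8 CPM with DMSO and 20.8, 28.1, 14.1 and 16.6 with TGFB1, with overlap. SNAI1 had 14.2, 18.5, 15.4 and 15.4 with DMSO and 11.5, 11.5, 12.2 and 16.3 with TGFB1, also with overlap.

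In SW480 none of the 9 tested members was called with TGFB1, where 1.05% of all genes were. The test called 160 genes, and 1967 had an unadjusted p under 0.05. ELF3 had 26.7, 28.2, 33.0 and 29.8 CPM with DMSO and 27.9, 37.1, 48.0 and 46.8 with TGFB1 (0.42 ± 0.13, adjusted p = 0.135). In Tet2CD cells the TGFB1 libraries lay above DMSO, and in vector cells the ranges overlapped. ZEB1 had 6.46 and 8.96 CPM with DMSO and 14.6 and 16.3 with TGFB1 in vector cells, and 1.96 and 5.71 against 2.9 and 8.89 in Tet2CD cells (0.80 ± 0.38, adjusted p = 0.4). The vector libraries separated and the Tet2CD libraries did not.

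CDH1 in SW480-vector was at 93.7 and 114 CPM with DMSO and 71.4 and 63.4 with TGFB1, all lower, with a log2 difference of -0.62 ± 0.25 (adjusted p = 0.367). In SW480-Tet2CD it was at 104 and 127 with DMSO and 96.5 and 195 with TGFB1, with overlap (0.34 ± 0.25, adjusted p = 0.901). Averaged over the constructs it was -0.14 ± 0.18 (adjusted p = 0.822). The difference between the constructs, a contrast added after these values were seen, was -0.97 ± 0.35 (adjusted p = 0.911). No member passed in it, and 0.0131% of all genes did. Without the 3 libraries that stood apart, which leaves 1 library in each SW480-Tet2CD group, it was -1.23.

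Whether TGFB1 acted differently in the lines was tested as an interaction, called for 2.07% of all genes (0.902% higher and 1.17% lower). ELF3 was the only member called in it (-1.25 ± 0.18, adjusted p = 0.00148), with a smaller change in SW480. CDH1 fell short (-0.93 ± 0.25, adjusted p = 0.0611), as did ESRP2 (0.63 ± 0.19, adjusted p = 0.11). CDH1 passed under relative log expression scaling (adjusted p = 0.0476), without the filter (0.0131) and in DESeq2 (0.00494). It was at -0.77 without the 3 libraries that stood apart. ESRP2 passed in DESeq2 (adjusted p = 0.0137).

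**Figure D5:**
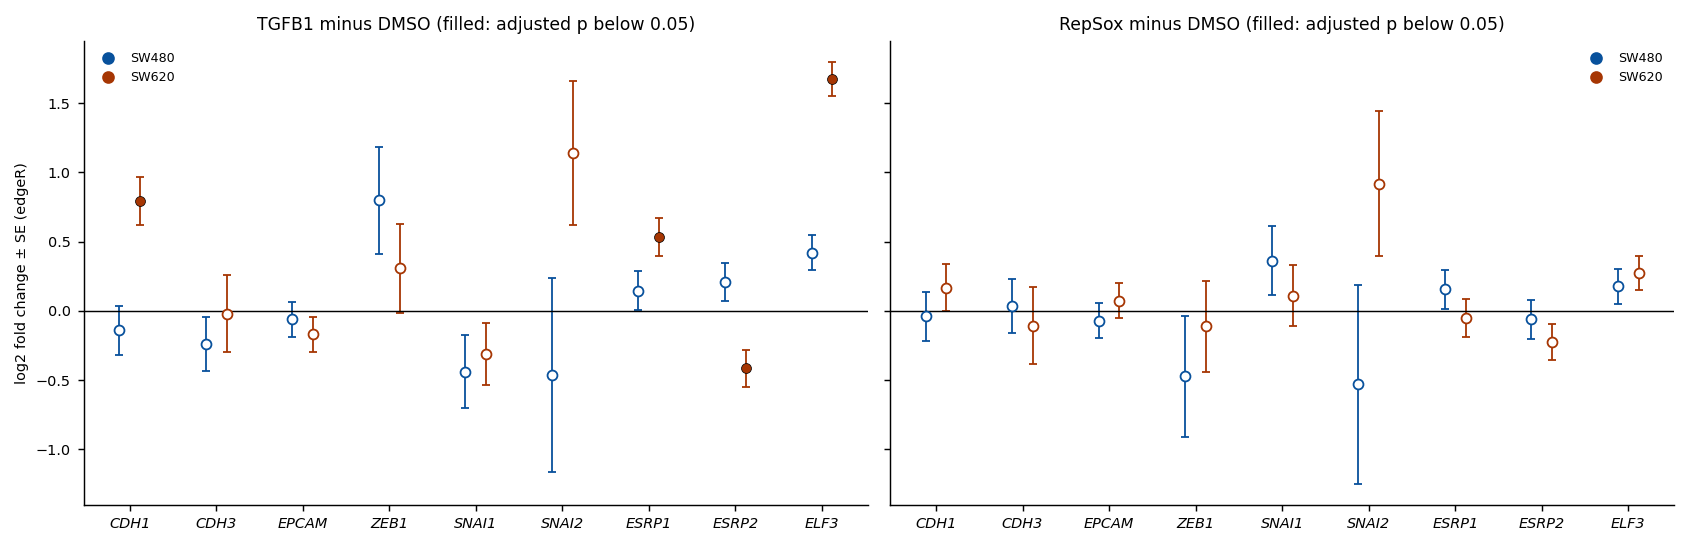
Log2 fold change ± SE of TGFB1 (left) and RepSox (right) against the same DMSO libraries for the 9 tested genes, SW480 in blue and SW620 in orange, with filled points where the adjusted p was below 0.05. With TGFB1 in SW620 ELF3 (1.67), CDH1 (0.79) and ESRP1 (0.53) rose and ESRP2 (-0.42) fell, and no other point is filled.

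RepSox called no member in either line. In SW480 edgeR called 0 genes in all, with 433 at an unadjusted p under 0.05 and 1 called by DESeq2, and the members lay between -0.53 (SNAI2) and 0.36 (SNAI1). In SW620 it called 4.69% of genes. There ELF3 had 35.2, 38.3, 40.8 and 40.6 CPM with RepSox, just above the 26.3 to 34.9 with DMSO, and its change of 0.27 ± 0.12 was not called (adjusted p = 0.28). ESRP2 had 99.0, 106, 100 and 100 CPM with RepSox, below the 111 to 126 with DMSO (-0.23 ± 0.13, adjusted p = 0.435), and was called without the 3 SW480 libraries (-0.25, adjusted p = 0.0427). CDH1 had 337 and 318 CPM in vector cells with RepSox and 225 and 228 in Tet2CD cells, the former above and the latter below their DMSO controls (0.17 ± 0.17 on average, adjusted p = 0.73). The RepSox effects of the lines were not shown to differ for any member, with 1.03% of genes called. Beside this, the TGF-beta target PMEPA1 rose in SW620 with RepSox (1.07, adjusted p = 2.73e-05) as well as with TGFB1 (0.47, adjusted p = 0.00581), and TGFBI rose with RepSox (0.75, adjusted p = 0.00117). COL1A1, by contrast, rose with TGFB1 (0.83) and fell with RepSox (-1.08) in SW620. Whether the treatment labels of SW620 libraries were exchanged was not tested, and the results of TGFB1 and RepSox in that line rest on the labels.

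Wider lists gave the setting of these changes, in SW480 with Tet2CD against the 54.5% of all genes called (29.2% higher and 25.3% lower). Of 11 tested adherens junction partners, 3 rose and 8 fell with Tet2CD in SW480 (median log2 change -0.49, against 0.0289 over all genes). The beta-catenin antagonist CTNNBIP1 (1.29), plakoglobin (JUP, 0.53) and NECTIN2 (0.69) rose, while vinculin (VCL, -1.14), NECTIN1 (-0.49), ARHGAP35 (-0.70) and beta-catenin itself (CTNNB1, -0.52) were among those that fell. Of 17 other epithelial genes 9 rose, among them LLGL2 (0.95), SPINT1 (1.22) and ST14 (0.61), and 4 fell, among them KLF5 (-1.08), EHF (-1.53) and desmoplakin (DSP, -0.92), with a median of 0.532. Of 9 mesenchymal genes 3 rose, COL1A1 (1.10), MMP2 (1.91) and S100A4 (1.16), and 2 fell, fibronectin (FN1, -1.13) among them (median 0.279). Of 6 other EMT transcription factors 2 rose, FOXC2 (3.24) among them, and 2 fell, SOX4 (-0.42) and TCF3 (-0.23) (median 0.139). Of 8 TGF-beta targets 4 rose, among them TGFBI (1.35), PMEPA1 (0.50) and LTBP2 (0.90), and 3 fell, BHLHE40 (-0.96) and SKIL (-0.60) among them (median 0.0324). No gene of these lists was called with Tet2CD in SW620.

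Without the 3 libraries that stood apart, 38% of genes were called with Tet2CD in SW480 (18.1% higher and 19.9% lower, median log2 change -0.014). Then 3 junction partners rose and 6 fell (median -0.209), 6 other epithelial genes rose and 4 fell (0.14), 4 mesenchymal genes rose and 2 fell (-0.0355), 2 other transcription factors rose and none fell (0.0121), and 3 TGF-beta targets rose and 2 fell (-0.0749). Of the genes named above S100A4 (-0.04, adjusted p = 0.862), SOX4 (-0.26, adjusted p = 0.169), TCF3 (-0.12, adjusted p = 0.199) and SKIL (-0.27, adjusted p = 0.194) were not called then. Of the 8 intestinal markers 3 rose, CDX2 (1.42), VIL1 (0.93) and HNF4A (1.03), and of 3 endothelial markers VWF did (0.80).

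With TGFB1 in SW620, where 15.6% of all genes were called, JUP rose (0.78) and NECTIN1 fell (-0.39) among the 11 junction partners. KLF5 (1.27), EHF (0.81) and EPS8L1 (0.80) rose among the 17 epithelial genes, and none fell. Of the 9 mesenchymal genes 2 rose, COL1A1 (0.83) among them, and TNC (-1.28) fell. TCF3 fell (-0.42) among the other transcription factors, and 3 of the 8 TGF-beta targets rose, BHLHE40 (1.58) and PMEPA1 (0.47) among them. In SW480, with 1.05% of genes called, the calls with TGFB1 were PMEPA1 (1.07, adjusted p = 0.000187) and TGFBI (0.62, adjusted p = 0.014), and none came from the other 4 lists. With RepSox in SW620, with 4.69% called, EHF (1.90) and TNC (1.84) rose and COL1A1 (-1.08) fell.

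Between the vector lines, where 58.9% of all genes were called (28.9% higher and 30% lower in SW480), SW480 was higher for 8 and lower for 6 of the 17 epithelial genes. AP1M2 (4.79) and ST14 (1.09) were higher and EHF (-4.59), KLF5 (-1.29) and LLGL2 (-0.68) lower there (median of the list 0.293, against -0.0374 over all genes). Of the mesenchymal genes 4 were higher, among them MMP2 (6.50) and FN1 (2.23), and TNC (-4.75) was lower. Among the transcription factors PRRX1 (4.79) was higher and 3 were lower, SOX4 (-3.27) and TCF3 (-0.53) among them. Among junction partners 5 were higher, CTNNB1 (1.37), PKP4 (0.64) and ARHGAP35 (1.04) among them, and 4 lower, CTNNBIP1 (-2.16), VCL (-1.38) and CTNND1 (-0.65) among them. Of the TGF-beta targets 5 were higher, LTBP2 (5.15) and SMAD7 (3.52) among them, and none lower.

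How the members varied with CDH1 was described by Pearson's r of log2 CPM over the 12 group means, points that share libraries' depth and the 2 lines. Over all groups r was 0.91 for SNAI2, 0.82 for ESRP1, 0.81 for SNAI1, 0.69 for ELF3 and ESRP2, 0.61 for ZEB1, -0.59 for EPCAM and -0.90 for CDH3. After each line's mean was subtracted, r was 0.74 for ELF3, 0.53 for SNAI2, 0.21 for EPCAM, 0.17 for SNAI1, 0.11 for ESRP1, 0.06 for CDH3, -0.20 for ZEB1 and -0.73 for ESRP2. Most of the pooled values thus followed the difference between the lines. Without the 3 libraries that stood apart, r over all groups was 0.89 for SNAI2, 0.78 for ESRP1, 0.73 for SNAI1, 0.72 for ELF3, 0.64 for ZEB1, 0.62 for ESRP2, -0.49 for EPCAM and -0.83 for CDH3. After subtraction it was then 0.66 for SNAI2 and ELF3, 0.35 for EPCAM, 0.26 for SNAI1, 0.25 for CDH3, 0.08 for ESRP1, -0.05 for ZEB1 and -0.84 for ESRP2. Among 13985 genes the patterns most like that of CDH1 were those of AC105942.1, OTUD5, NHSL1, TERF2IP and NR2F1 (r from 0.972 to 0.975). After subtraction they included those of TMEM167B, CYP2S1, NMRK1 and TERF2IP (0.896 to 0.917).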

How the data were processed

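Gene tables of 24 libraries were used. The authors' methods name TRIzol extraction, a TruSeq kit, NextSeq 500 sequencing, Trimmomatic and RSEM with bowtie2. The submitters' processing notes name Bowtie, RSEM and the mouse build mm10, but all 33382 gene identifiers are human. The authors deposited an expected count per gene (RSEM's estimate, not normalized) and TPM, which the authors scaled by transcript length and depth. The deposited FPKM was not used. The paper describes another ligand mix and a longer treatment, and the labels were followed. Symbols and positions came from GENCODE release 29 for 32777 genes (98.2%).

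Rounded expected counts went into edgeR 4.0.16 (R 4.3.3), with its quasi-likelihood test, TMM scaling and filterByExpr, and 15302 genes remained. A single fit to the 24 libraries had 12 group means, 12 residual degrees of freedom and a common biological coefficient of variation of 21.3%. P-values were adjusted over all genes tested (Benjamini-Hochberg, threshold 0.05). The SE was the log2 fold change divided by the root of F. CPM are counts relative to the TMM-scaled library size. Intervals for counts are exact Poisson at 95%. On simulated data for TGFB1 in SW620, with 14555 genes tested, the test called 28.4%, 76.1% and 100% of genes changed 1.5-, 2- and 4-fold, with 4 false calls. Only genes above a count limit were changed, all genes had the same variation, and libraries were drawn independently. The rates therefore do not cover scarce members such as SNAI2 or the shared shift of the SW480-Tet2CD libraries.

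Groups came from the labels. Replicate numbers 1 and 2 follow accession order, and were not used to pair libraries. No source says that the 2 libraries of a group were separate cultures, and p-values then reflect only how far these libraries differ, possibly for technical reasons. The members, the gene lists and the tests were chosen with earlier results of these data known. Named genes are the 10 members and, from each other list, the 3 rising and the 3 falling genes with the smallest p. CTNNB1 with Tet2CD was added after its value was seen, and a few genes picked this way are left out of the text. Alternatives were relative log expression scaling, no filter, DESeq2 1.42.0, a block for library number set, single lines, single constructs, DMSO alone, TPM, the 3 libraries that stood apart left out (also for the other lists, chosen after seeing the data), and each library left out.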

Additional observations from a re-analysis of the deposited data

Results flagged for a closer look

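The effects of 5 members differed between the lines in the interaction contrasts of edgeR's quasi-likelihood test. For Tet2CD against vector, SW480 minus SW620, the log2 differences were 0.76 for CDH1 (adjusted p = 0.0168), 0.51 for EPCAM (adjusted p = 0.024), -0.54 for ESRP1 (adjusted p = 0.0287) and -0.86 for ESRP2 (adjusted p = 0.00197). For TGFB1 against DMSO the difference was -1.25 for ELF3 (adjusted p = 0.00148). Without the 3 SW480-Tet2CD libraries that stood apart, the Tet2CD differences were 1.00 for CDH1, 0.47 for EPCAM, -0.38 for ESRP1 and -0.69 for ESRP2. That fit has 1 library in each SW480-Tet2CD group. With 1 library left out at a time, the Tet2CD calls of CDH1, EPCAM and ESRP1 were each lost in some fits, and that of ESRP2 in none. With DMSO libraries alone no member was called in the Tet2CD contrast. Why the values moved was not tested. Dixon's outlier test was not applied to groups of 2 libraries.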

How the results depend on the processing

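Of 1923 values of members under alternatives, 1832 kept their side of the threshold, 67 lost and 24 gained a call. No called value changed sign, but 80 values that were called in neither fit did. The block for library number set changed the count of members called for the TGFB1 difference between lines from 1 to 2, and that of no other comparison. It rests on a shared number only, since differences between replicates of the groups correlated with a median of 0.031 over 66 pairs, 22 of them negative. Within the 3 SW480-Tet2CD groups they correlated at 0.603 to 0.714, and between the other groups at -0.102 to 0.215. For the TGFB1 line difference, members called were 2 with relative log expression scaling, 2 without the filter, 3 with DESeq2, 3 without the 3 libraries that stood apart and 0 in Tet2CD cells alone. For Tet2CD in SW620 they went from 0 to 2 without those libraries and to 2 with that line alone, and for RepSox in SW620 from 0 to 1 in each case. For the difference between constructs of TGFB1 in SW480 they went from 0 to 1 without those libraries. For Tet2CD in SW480 they were 3 with that line alone and 2 with DMSO alone, for its line difference 0 with DMSO alone, and for the lines 5 with DMSO alone. For TGFB1 in SW620 they were 2 in vector and 1 in Tet2CD cells alone. The ratio of the highest to the lowest group mean of CDH1 was 6.83 in CPM and 5.67 in TPM. Of the 5 genes most like CDH1, 0 were shared without the 3 libraries, and 1 of 5 after subtraction of line means. With each library left out, members called ranged from 8 to 8 between the lines, from 5 to 7 for Tet2CD in SW480, from 0 to 0 for it in SW620, from 2 to 6 for its difference, from 2 to 4 for TGFB1 in SW620, from 0 to 0 for it in SW480, from 1 to 2 for its difference, and from 0 to 0 for RepSox and for both differences between constructs. In many of these settings the count over all genes moved as well, as given below, so these counts are not particular to the members. The cause of these changes was not tested.

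Counts over all genes moved by more than 1.5 times in these cases. TGFB1 in SW480 called 160 genes, against 297 without the filter, 402 with DESeq2, 1002 without the 3 libraries, 0 with that line alone, and 81 in vector and 14 in Tet2CD cells. TGFB1 in SW620 called 2383, against 5447, 5761, 759 and 733 (without the 3 libraries, that line alone, vector, Tet2CD). RepSox in SW620 called 717, against 2430, 2861, 132 and 141 in that order. RepSox in SW480 called 0, against 38 without the filter and 1 with DESeq2. Tet2CD in SW620 called 48, against 124 without the filter, 91 with DESeq2, 467 without the 3 libraries, 643 with that line alone and 4 with DMSO alone. The TGFB1 line difference called 317, against 588 with DESeq2, 1327 without the 3 libraries, 69 in vector and 25 in Tet2CD cells. The RepSox line difference called 157, against 262 without the filter, 309 with DESeq2, 577 without the 3 libraries, and 8 and 12 by construct. With DMSO alone, Tet2CD in SW480 called 1035 in place of 8336, its line difference 74 in place of 3083, and the lines 5286 in place of 9017. With each library left out, genes called ranged from 8345 to 8659 between the lines, from 6841 to 9676 for Tet2CD in SW480, from 14 to 43 for it in SW620, from 1516 to 1938 for TGFB1 and 343 to 412 for RepSox in SW620, and from 49 (without the first SW480-vector library with DMSO) to 278 (without the first SW480-Tet2CD library with TGFB1) for TGFB1 in SW480. For the line differences they ranged from 1926 to 6402 (Tet2CD), from 128 to 429 (TGFB1) and from 63 to 776 (RepSox), and for RepSox in SW480 from 0 to 11. The 6402, 776 and 11 came without the second SW480-Tet2CD library with RepSox. Depth limits SNAI2 and GRHL2 most, which had 52 and 0 counts over all SW480 libraries.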
